A study of Mus musculus with 18 samples.

Results

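The 78 genes described here code for mitochondrial ribosomal proteins. They were taken from a table of RNA-sequencing counts as every row whose Ensembl mouse gene is protein-coding in GENCODE (GRCm38) and whose symbol starts with Mrpl or Mrps followed directly by a digit. They make up 78 of 48794 rows in the table, 49 with Mrpl symbols and 29 with Mrps symbols, and lie on 17 chromosomes with at most 11 on any 1 of them. The RNA came from bone marrow-derived macrophages of male C57BL/6 mice, matured over 7 days in recombinant human M-CSF at 50 ng/ml. All cells were then kept for 24 h in M-CSF at 10 ng/ml, alone (Control), with mouse IL-4 and IL-13 at 10 ng/ml each (IL4_IL13), or with these cytokines and mouse TNFα at 10 ng/ml (IL4_IL13_TNFa). Each group held 6 libraries, numbered 1 to 6, and the labels do not say whether they came from separate animals or cultures. The spread behind each p-value is therefore that of these libraries and may be technical.

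The mitochondrial ribosome translates the few mRNAs of the mitochondrial genome, all of which code for core subunits of the respiratory chain and ATP synthase. Its proteins are coded in the nucleus, made in the cytosol and imported, where they join ribosomal RNAs made inside the organelle. The small subunit reads the mRNA and the large subunit joins the amino acids. Some of the proteins descend from those of bacterial ribosomes, and others are specific to mitochondria. Macrophages activated by IL-4 or IL-13 are known for a high use of mitochondrial respiration.

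Of the 78 genes, 77 had enough counts to be tested among 13177 genes in all. The exception was Mrpl53, a large-subunit gene with 81 counts over all 18 libraries and mean levels of 0.220, 0.280 and 0.314 CPM, that is, counts scaled to a common library size, in Control, IL4_IL13 and IL4_IL13_TNFa. It shares 710 bp of exon with Gm42688 on the same strand. Among the other members, 32 also share exon sequence with another gene, and reads there may have been split or lost. Levels below are CPM over library sizes scaled by TMM unless library totals are named, and ± after a level is the SD over 6 libraries. Differences are log2 fold changes with an approximate standard error after ±, tested by edgeR's quasi-likelihood test. Its p-values were adjusted by Benjamini-Hochberg over all 13177 genes, and an adjusted p under 0.05 passed. The 3 comparisons share libraries, so their results are not independent of each other.

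The libraries held 14793404 to 20056125 counts each. All 8 macrophage markers looked for were measured, and their summed level was 21304 ± 3869 CPM in Control, 8843 ± 645 in IL4_IL13 and 8716 ± 287 in IL4_IL13_TNFa. Much of the sum was Lyz2, with means of 11987.5 CPM in Control and 2843 in IL4_IL13. Of the 8, 7 fell and 1 rose with IL-4 and IL-13, where 29.7% of all genes fell. With added TNFα 5 fell and 1 rose (median -0.60), where 29.3% of all genes fell. Fcgr1 fell most, with means of 130, 21.8 and 0.998 CPM in the 3 groups. Summed markers of neutrophils, T and NK cells, B cells, mast cells and basophils, and erythroid cells stayed at or below 3.19 CPM in every group, while stromal markers summed to 249 ± 192, 213 ± 157 and 140 ± 96.7 CPM. The eosinophil list summed to 9.34, 32.1 and 60.8 CPM in the 3 groups, with Siglecf at means of 1.23, 20.5 and 50.6 CPM. Of its 4 genes 2 had enough counts to be tested. The other, Ccr3, rose with IL-4 and IL-13 (0.52, adjusted p = 0.0347). It did not pass with added TNFα (-0.19, adjusted p = 0.439) or against Control (0.33, adjusted p = 0.152). Control replicate 1 stood apart: in it 1836 genes lay more than 2-fold away from the other controls, where no other library had more than 393 such genes against the rest of its group. That library had a summed cell cycle level of 4422 CPM against 1210 to 2133 in the other controls, and a summed stromal level of 17.3 CPM against 96.7 to 558.6. It was the highest control in 64 of 77 members (83.1%), against 40.1% of all genes. The part of these differences in the results was not tested, and values without that library are given beside some of the results. In bulk RNA, fewer cells of a type and less RNA per cell cannot be told apart.

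Promoter sequences are shown for a few members, to set the letters around their starts beside their values. RefSeq windows on GRCm38.p6 reaching from 250 bases before the annotated start to 50 after it were matched for 69 of the 78 members. Both strands were searched, no motif contains another, and matches that overlap end to end were each counted. CCGGAAG, a binding motif of ETS factors such as GABP, was found in 25 of 69 member windows (36.2%), against 19.0% of the windows of tested genes and 9.12% of all windows. AAGATGGC, the motif of YY1, was found in 12 (17.4%), against 4.91% and 2.88%. The palindromic motif of NRF1 was found in 3 (4.35%), against 2.17% and 0.977%. The E-box CACGTG, which MYC can bind, was found in 5 (7.25%), against 10.3% and 7.24%, and TATAAA was found in 4 (5.80%), against 6.81% and 14.2%. ETS and YY1 letters were thus more frequent in member windows than in those of tested genes, while the E-box and the TATA letters were not. A match describes letters only and is not evidence of binding.

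The 250 bases upstream of the start are printed 5′ to 3′ on the gene's own strand, with ETS, YY1 and E-box matches in capitals on whichever strand they lie. Mrpl36, at chr13:73330759-73331008 on the plus strand, holds an E-box and a YY1 match. In GENCODE its start lies at 73328513, beside that of Ndufs6. The printed stretch before the RefSeq start lies downstream of there and is not the region shared with Ndufs6. Mrpl52, at chr14:54426659-54426908 on the plus strand, is the member that rose most when TNFα was added. Mrps12, at chr7:28741822-28742071 on the minus strand, codes for a protein of the decoding centre, and its upstream stretch reaches into the start region of Sars2 on the opposite strand. The Mrps18 relatives are shown for comparison with each other: Mrps18a at chr17:46110754-46111003 on the plus strand, Mrps18b at chr17:35916441-35916690 on the minus strand and Mrps18c at chr5:100798509-100798758 on the plus strand.
Mrpl36: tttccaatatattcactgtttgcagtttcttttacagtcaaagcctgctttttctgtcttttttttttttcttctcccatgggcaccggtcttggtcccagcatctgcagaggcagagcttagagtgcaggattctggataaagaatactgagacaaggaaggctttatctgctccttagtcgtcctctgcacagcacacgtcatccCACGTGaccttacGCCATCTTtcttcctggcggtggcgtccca
Mrpl52: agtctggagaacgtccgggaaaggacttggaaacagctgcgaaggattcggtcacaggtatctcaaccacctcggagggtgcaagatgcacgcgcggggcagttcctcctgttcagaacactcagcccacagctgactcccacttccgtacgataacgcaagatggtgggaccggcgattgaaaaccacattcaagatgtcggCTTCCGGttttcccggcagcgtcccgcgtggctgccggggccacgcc
Mrps12: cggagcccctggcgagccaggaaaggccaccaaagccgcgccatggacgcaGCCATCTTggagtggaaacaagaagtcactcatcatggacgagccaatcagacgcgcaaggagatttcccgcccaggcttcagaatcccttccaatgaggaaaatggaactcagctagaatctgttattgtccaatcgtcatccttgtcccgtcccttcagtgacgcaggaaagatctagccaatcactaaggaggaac
Mrps18a: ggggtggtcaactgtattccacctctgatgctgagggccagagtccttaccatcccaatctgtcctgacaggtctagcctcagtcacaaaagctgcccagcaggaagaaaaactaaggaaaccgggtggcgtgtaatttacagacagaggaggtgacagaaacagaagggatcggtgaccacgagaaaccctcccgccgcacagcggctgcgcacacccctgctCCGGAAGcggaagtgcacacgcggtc
Mrps18b: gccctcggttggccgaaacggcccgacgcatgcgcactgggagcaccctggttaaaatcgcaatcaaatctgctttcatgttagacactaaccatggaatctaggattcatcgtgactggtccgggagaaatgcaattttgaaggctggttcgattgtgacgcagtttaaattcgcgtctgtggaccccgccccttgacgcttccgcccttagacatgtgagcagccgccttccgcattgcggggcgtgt
Mrps18c: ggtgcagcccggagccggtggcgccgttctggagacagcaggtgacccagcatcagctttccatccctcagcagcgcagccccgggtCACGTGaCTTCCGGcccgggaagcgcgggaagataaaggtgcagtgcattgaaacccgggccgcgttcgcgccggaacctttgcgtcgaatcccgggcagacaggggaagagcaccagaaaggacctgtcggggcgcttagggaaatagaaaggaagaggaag
In Mrpl36 the E-box begins 43 bases before the start and the YY1 match 30 bases before it. In Mrpl52 an ETS match begins 47 bases before the start. The upstream stretch of Mrps18a holds an ETS match 26 bases before the start. In Mrps18c an E-box and an ETS match, the latter 156 bases before the start, lie next to each other. The stretch of Mrps18b holds no match to the 5 motifs, and its ETS match lies after the start, outside what is printed.

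The genes of 4 of the factors named above had the following levels. They were chosen for their motifs, with their values known. Gabpa, the DNA-binding subunit of GABP, had a mean level of 68.9 CPM in Control, rose to 80.3 with IL-4 and IL-13 (log2 fold change 0.22 ± 0.05, adjusted p = 0.00207) and fell to 59.7 when TNFα was added (-0.43 ± 0.06, adjusted p = 1.93e-06). Nrf1 had means of 35.1, 36.1 and 27.2 CPM and fell when TNFα was added (-0.41 ± 0.05, adjusted p = 3.11e-06). Yy1 stayed between means of 99.1 and 103 CPM, and none of its 3 comparisons passed the test with TMM (adjusted p = 0.215 to 0.602). With library totals, explained below, Yy1 fell when TNFα was added (-0.17, adjusted p = 0.00115). Myc had means of 19.3, 86.4 and 94.5 CPM and rose with IL-4 and IL-13, with its range and test given among the regulators at the end.

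With IL-4 and IL-13, most mitochondrial ribosomal protein genes rose by a small amount. Of 77 members, 60 rose and 1 fell against Control, where 59% of all 13177 genes passed the test (29.3% higher, 29.7% lower). The median log2 fold change was 0.31 over the members, with quartiles of 0.19 and 0.44, and -0.00 over all genes. Only 1 member rose 2-fold or more, against 5.68% of all genes, and 7 rose at least 1.5-fold, against 12.4%. In 14 members every IL4_IL13 library was above every Control library, against 12.5% of all genes. Without the 3 libraries numbered 1 this held for 56 members, against 28.1% of all genes. Without Control replicate 1 alone, 64 members rose and the median was 0.39.

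Mrps28 (ENSMUSG00000040269, chr3:8802146-8923918, minus strand), which codes for a small-subunit protein of bacterial type, rose most. Its level ran from 3.31 to 9.63 CPM in Control (median 4.04), from 9.90 to 16.0 in IL4_IL13 (median 11.9) and from 16.7 to 20.3 in IL4_IL13_TNFa (median 18.3). The 3 groups did not overlap, and the 9.63 CPM was Control replicate 1. The log2 fold change was 1.33 ± 0.20 with IL-4 and IL-13 (adjusted p = 2.27e-05) and 0.58 ± 0.19 when TNFα was added (adjusted p = 0.0144). The second of these did not pass the test with library totals (0.38, adjusted p = 0.0958) or with no filter (adjusted p = 0.0534). The gene 1675 bp upstream on the same strand, Tpd52, which was picked for its position after its values were seen, went the other way, with means of 391, 247 and 108 CPM.

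Mrpl12 (chr11:120484613-120489065, plus strand), which codes for the stalk protein of the large subunit, where translation factors dock, followed. Its level ran from 19.1 to 37.5 CPM in Control (median 19.6), from 39.9 to 46.4 in IL4_IL13 (median 42.6) and from 56.5 to 67.1 in IL4_IL13_TNFa (median 60.3). Again no group overlapped another, and the highest control was replicate 1, at 37.5 CPM. The gene rose by 0.94 ± 0.13 with IL-4 and IL-13 (adjusted p = 9.79e-06) and by 0.51 ± 0.13 with added TNFα (adjusted p = 0.00263).

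Mrps25, Mrpl42 and Mrpl18 completed the 5 largest rises with IL-4 and IL-13. Mrpl42 (chr10:95480805-95501940, minus strand), which codes for a mitochondria-specific large-subunit protein, had levels of 15.6 to 36.0 CPM in Control (median 17.5), 31.5 to 43.9 in IL4_IL13 (median 37.0) and 40.2 to 48.2 in IL4_IL13_TNFa (median 44.4). Control and IL4_IL13 overlapped through Control replicate 1 alone, and the rise was 0.90 ± 0.17 (adjusted p = 0.000158). With added TNFα the difference in Mrpl42 was 0.24 ± 0.16 (adjusted p = 0.211), which passed the test without Control replicate 1 (adjusted p = 0.00684). Mrpl18 (chr17:12911349-12916345, minus strand), which codes for a relative of a bacterial large-subunit protein, had levels of 23.1 to 41.7 CPM in Control (median 23.8), 37.6 to 51.3 in IL4_IL13 (median 41.3) and 41.8 to 50.2 in IL4_IL13_TNFa (median 45.3). It rose by 0.67 ± 0.13 (adjusted p = 0.000171), and its difference with added TNFα was 0.08 ± 0.12 (adjusted p = 0.585).

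**Figure D1:**
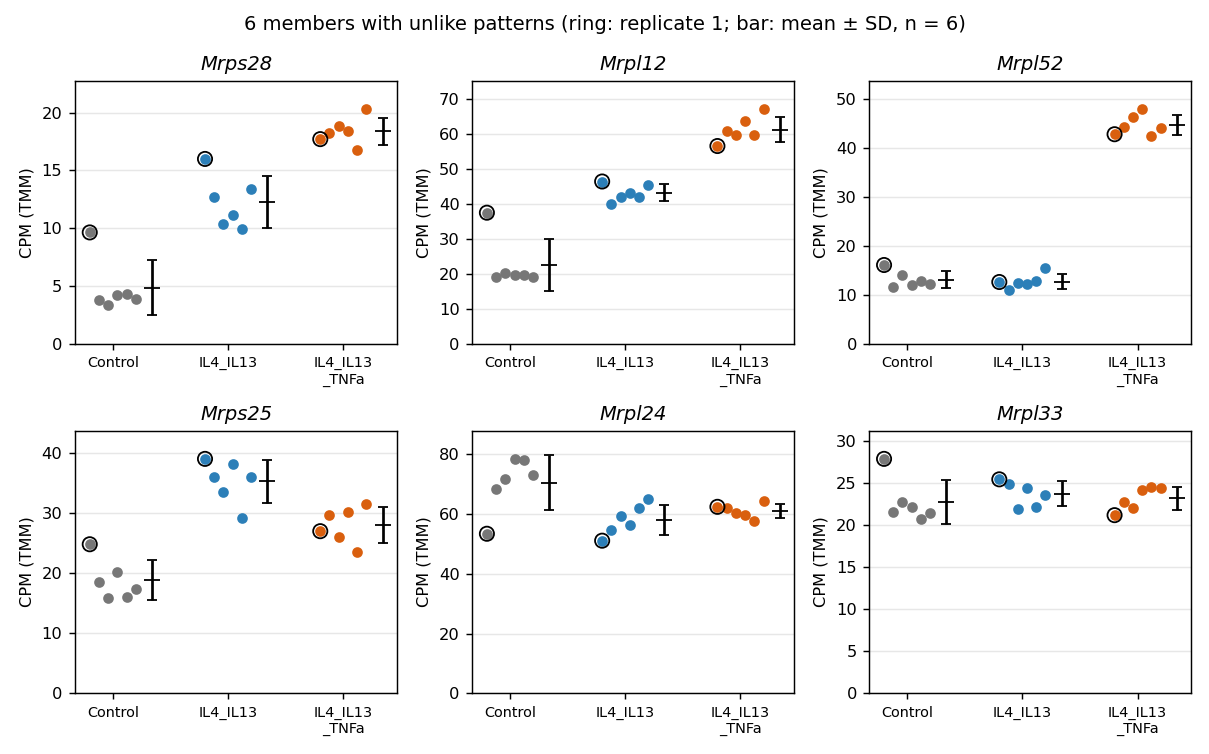
Level in CPM (TMM scaling, linear axes) in every library of the 3 groups for 6 members, Mrps28, Mrpl12, Mrpl52, Mrps25, Mrpl24 and Mrpl33; a ring marks replicate 1 of each group. Mrps28 and Mrpl12 climb at both steps, and Mrpl52 climbs only when TNFα was added to IL-4 and IL-13 (medians of 12.4, 12.4 and 44.1 CPM). Mrps25 climbs and then drops, Mrpl24 is highest in Control and Mrpl33 stays between 20.7 and 27.9 CPM.

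When TNFα was added to IL-4 and IL-13, 53 of 77 members rose again and 3 fell with TMM scaling, where 59.6% of all genes passed the test (30.3% higher, 29.3% lower). The median log2 fold change was 0.29 over the members, with quartiles of 0.17 and 0.40, and 0.00 over all genes. In 41 members every IL4_IL13_TNFa library was above every IL4_IL13 library, against 23.3% of all genes. At least 2-fold rises were seen in 2 members, against 6.72% of all genes, and at least 1.5-fold rises in 6, against 12.8%.

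This second rise depended on how the libraries were scaled. TMM factors were 1.057 to 1.078 in Control, 1.024 to 1.055 in IL4_IL13 and 0.893 to 0.910 in IL4_IL13_TNFa, and the 10 most counted genes took 6.28 ± 0.479%, 5.71 ± 0.351% and 8.36 ± 0.177% of all counts. With library totals in place of TMM, 17 members rose and 11 fell when TNFα was added, against 17.6% and 46.1% of all genes. The members' median was then 0.08 and that of all genes -0.20, so the members lay 0.28 above all genes on the log2 scale under both scalings. A change of scaling shifts all genes nearly alike, so this gap could hardly have changed. With IL-4 and IL-13 alone, 54 members rose and 1 fell with library totals, where 26.3% of all genes rose and 33.2% fell, and the median was 0.27 against -0.04 for all genes. Of the genes that passed with added TNFα, 27.6% were higher with library totals against 50.9% with TMM, and for IL-4 and IL-13 alone the shares were 44.2% and 49.7%. The members' rise with IL-4 and IL-13 was thus much the same under either scaling, while the rise with TNFα was a shift relative to other genes more than in the share of all counts.

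The summed level of all 78 members shows the same dependence. It was 1448 to 1833 CPM in Control (median 1462), 1788 to 1987 in IL4_IL13 (median 1853) and 2205 to 2398 in IL4_IL13_TNFa (median 2248). Control replicate 1 held the 1833 CPM, inside the IL4_IL13 range, and the other 5 controls lay between 1448 and 1467 CPM. The ratio of the mean sums was 1.23 for IL4_IL13 over Control and 1.21 for IL4_IL13_TNFa over IL4_IL13. With library totals these ratios were 1.20 and 1.05, from mean sums of 1627 ± 153, 1946 ± 95.6 and 2042 ± 74.0 CPM. Of all counts in a library, the members thus held 0.154% to 0.194% in Control, 0.186% to 0.210% in IL4_IL13 and 0.198% to 0.218% in IL4_IL13_TNFa, and the last 2 ranges overlapped.

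**Figure D2:**
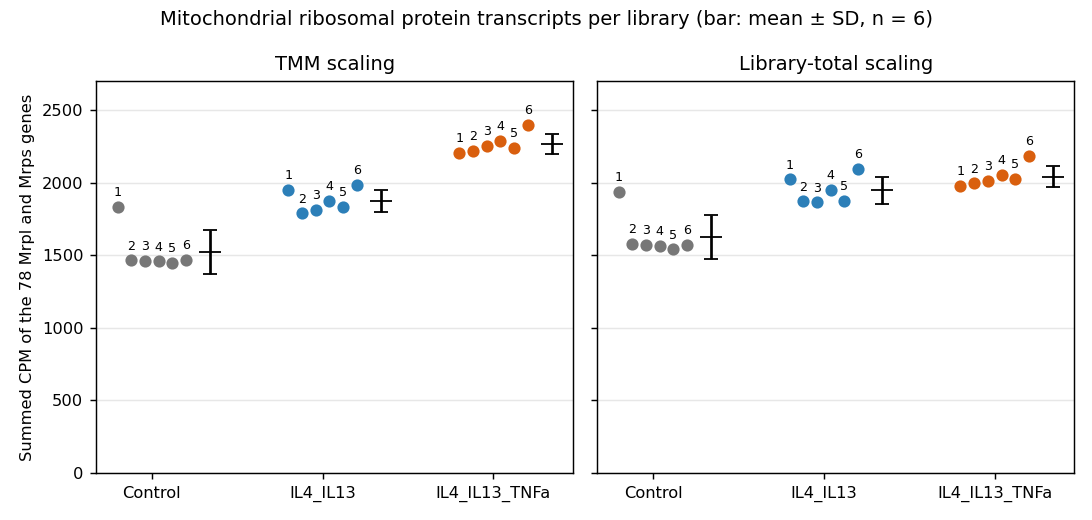
Summed level of the 78 members in CPM in each library, with TMM scaling on one panel and library totals on the other; digits are replicate numbers and bars are the group mean ± SD. With TMM the IL4_IL13_TNFa libraries (2205 to 2398 CPM) lie above all IL4_IL13 libraries (1788 to 1987 CPM), while with library totals the groups overlap (1979 to 2183 against 1864 to 2097 CPM).

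Mrpl52 (chr14:54426909-54429756, plus strand), which codes for a mitochondria-specific large-subunit protein, rose most with added TNFα. Its level ran from 11.6 to 16.0 CPM in Control (median 12.4), from 11.0 to 15.3 in IL4_IL13 (median 12.4) and from 42.4 to 47.8 in IL4_IL13_TNFa (median 44.1). Control and IL4_IL13 covered the same range, and every library with TNFα was far above both. The log2 fold change was -0.04 ± 0.08 with IL-4 and IL-13 (adjusted p = 0.676) and 1.81 ± 0.08 with added TNFα (adjusted p = 1.1e-12), a 3.51-fold difference. With library totals the second value was 1.61. The next gene downstream on the same strand, 1856 bp away, is Mmp14, a membrane-anchored matrix metalloproteinase, and it was looked up after its values were seen. Mmp14 had levels of 9.24 ± 3.46 CPM in Control, 5.27 ± 3.76 in IL4_IL13 and 151 ± 10.9 in IL4_IL13_TNFa. Its log2 fold change with added TNFα was 4.82 (adjusted p = 5.02e-10). A link between the 2 genes was not tested.

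Mrps18b was the other member that rose at least 2-fold with added TNFα. It belongs with Mrps18a and Mrps18c to a trio of relatives of 1 bacterial protein. The proteins of Mrps18b and Mrps18c sit in the small subunit, and that of Mrps18a sits in the large subunit. Mrps18b (chr17:35910379-35916389, minus strand) had levels of 7.45 to 16.7 CPM in Control (median 8.81), 13.2 to 18.5 in IL4_IL13 (median 14.1) and 28.4 to 33.6 in IL4_IL13_TNFa (median 32.0). Control and IL4_IL13 overlapped through Control replicate 1, and all libraries with TNFα were above the rest. It rose by 0.58 ± 0.15 with IL-4 and IL-13 (adjusted p = 0.00383) and by 1.09 ± 0.15 with added TNFα (adjusted p = 4.91e-06). With library totals the latter was 0.88.

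The other two relatives moved less. Mrps18a (chr17:46110986-46128910, plus strand) had levels of 22.1 to 26.3 CPM in Control (median 23.7), 23.6 to 29.4 in IL4_IL13 (median 27.5) and 31.2 to 33.97 in IL4_IL13_TNFa (median 32.9). It rose by 0.17 ± 0.06 (adjusted p = 0.0163, and 0.0646 with library totals) and then by 0.27 ± 0.06 (adjusted p = 0.000486, but 0.07 with an adjusted p of 0.34 with library totals). Mrps18c (chr5:100798627-100804471, plus strand) had levels of 11.9 to 14.9 CPM in Control (median 13.0), 14.0 to 15.6 in IL4_IL13 (median 15.2) and 15.6 to 18.4 in IL4_IL13_TNFa (median 17.5). Its 2 steps were 0.19 ± 0.06 (adjusted p = 0.0131) and 0.20 ± 0.06 (adjusted p = 0.0102), the latter -0.01 with library totals (adjusted p = 0.912).

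A ratio of 2 genes within a library does not depend on the scaling. The ratio tests below were added after the levels above were seen. Their p-values are therefore no independent support, and the adjustment does not cover that choice. The ratio of Mrps18b to Mrps18a was 0.320 to 0.645 in Control, 0.467 to 0.699 in IL4_IL13 and 0.845 to 1.07 in IL4_IL13_TNFa. From IL4_IL13 to IL4_IL13_TNFa its log2 rose by 0.82 (two-sided exact permutation test, p = 0.00216, the smallest these 6 against 6 libraries allow, adjusted p = 0.00487 over 9 tests). The ratio of Mrps18b to Mrps18c rose by 0.90 on the log2 scale at the same step (exact permutation p = 0.00216, adjusted p = 0.00487). From Control to IL4_IL13 the 2 ratios differed by 0.45 (exact permutation, adjusted p = 0.0584) and 0.43 (adjusted p = 0.0468). Without Control replicate 1 these were 0.59 and 0.56, both with an adjusted p of 0.00649. The ratio of Mrps18a to Mrps18c had means of 1.83, 1.80 and 1.90, and none of its 3 differences passed the exact permutation test (adjusted p = 0.356 to 0.781). The trio's ratios therefore changed through Mrps18b. Its mean ratio to Mrps18a went from 0.410 in Control to 0.965 in IL4_IL13_TNFa, so these levels drew together. Its mean ratio to Mrps18c went from 0.744 to 1.83, from below that gene to above it.

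**Figure D3:**
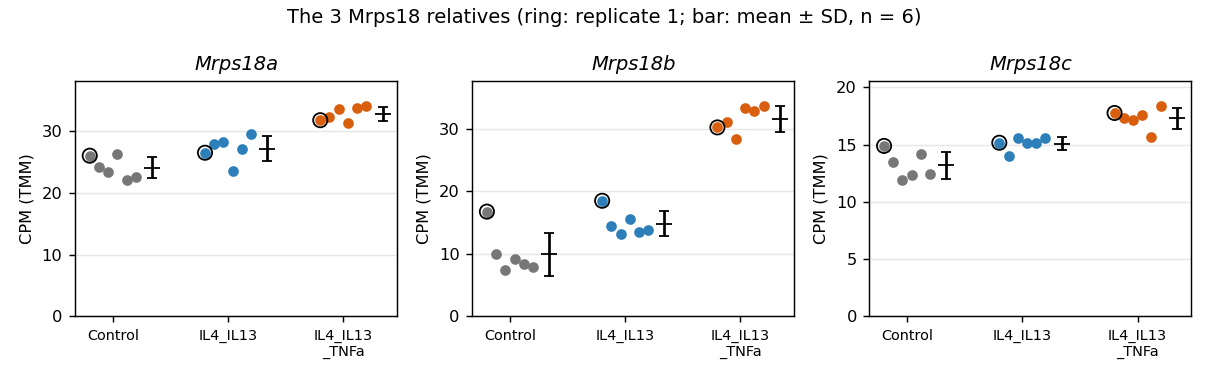
Level in CPM (TMM scaling) of Mrps18a, Mrps18b and Mrps18c in every library of the 3 groups. Mrps18b climbs from a median of 8.81 to 14.1 and 32.0 CPM, while Mrps18a (23.7 to 32.9) and Mrps18c (13.0 to 17.5) change less; with library totals the second step is 0.07 for Mrps18a and -0.01 for Mrps18c on the log2 scale, and neither passed.

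Mrpl38, Mrpl45 and Mrpl41, which code for mitochondria-specific large-subunit proteins, were the next largest rises with added TNFα. Mrpl38 had levels of 15.8 to 24.4 CPM in Control (median 17.4), 20.5 to 23.6 in IL4_IL13 (median 21.04) and 38.2 to 43.3 in IL4_IL13_TNFa (median 41.1). Its rise was 0.94 ± 0.08 (adjusted p = 1.12e-08), after 0.22 ± 0.08 with IL-4 and IL-13 (adjusted p = 0.0294). That first step lost its call with library totals (adjusted p = 0.0677) and when any 1 of 4 libraries was left out, namely IL4_IL13 replicate 1 or Control replicate 2, 3 or 4. Mrpl45, whose protein sits at the exit of the peptide tunnel, had levels of 32.3 to 36.8 CPM in Control (median 35.4), 30.4 to 36.3 in IL4_IL13 (median 34.97) and 50.1 to 65.6 in IL4_IL13_TNFa (median 52.7), a rise of 0.68 ± 0.06 at the second step alone (adjusted p = 2.08e-08). Mrpl41 had levels of 6.20 to 9.33, 9.07 to 12.4 and 14.8 to 17.98 CPM in the 3 groups in the same order and rose at both steps, by 0.43 ± 0.10 and 0.62 ± 0.10 (adjusted p = 0.00124 and 2.1e-05). In all 3 genes every library with TNFα was above every library without it.

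Against Control, the 3 cytokines together raised 71 of 77 members and lowered 1, where 73.8% of all genes passed (36.4% higher, 37.3% lower). The median log2 fold change was 0.56 over the members, with quartiles of 0.39 and 0.78, and -0.02 over all genes. With library totals 54 rose and 5 fell, where 25% of all genes rose and 51.3% fell. The medians were then 0.31 over the members and -0.27 over all genes, a gap of 0.58, which the scaling could again hardly change. At least 2-fold rises were seen in 11 members, against 11.5% of all genes, and at least 1.5-fold rises in 36, against 21%. The libraries did not overlap in 54 members that were higher, against 26.1% of all genes, and in 72 without the 3 libraries numbered 1, against 34.8%. The largest rises were in Mrps28 (1.92 ± 0.21), Mrpl52 (1.77 ± 0.08), Mrps18b (1.66 ± 0.15), Mrpl12 (1.44 ± 0.13) and Mrpl38 (1.16 ± 0.08), with adjusted p from 5.76e-13 to 1.05e-07. The 2-fold rises against Control were thus near the share of all genes, while 1.5-fold rises were more frequent among members than among all genes. Most members moved the same way.

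**Figure D4:**
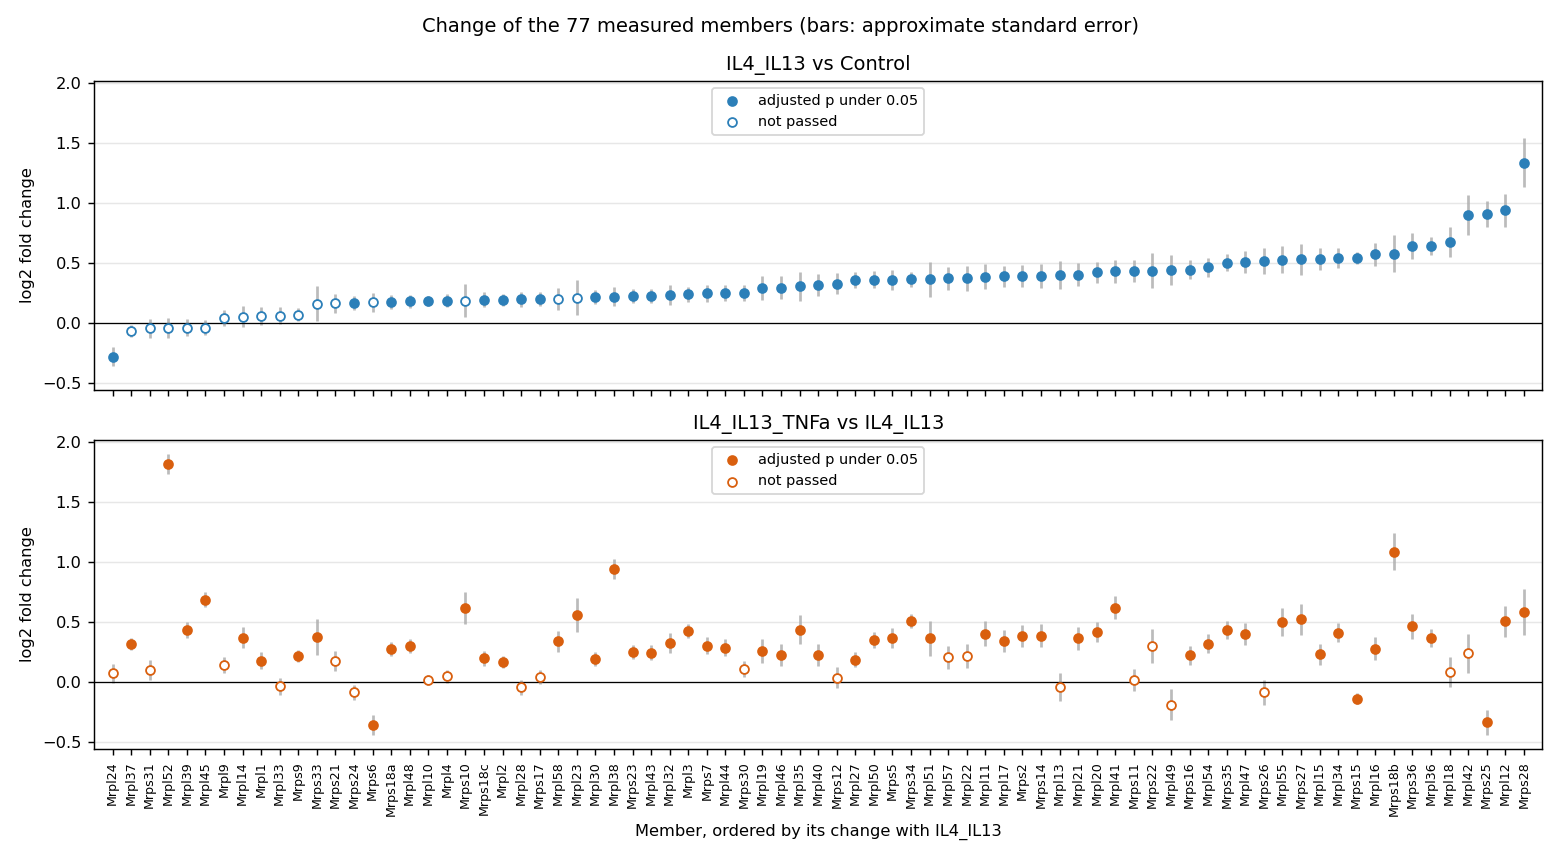
Log2 fold change (TMM scaling) of each of the 77 members for IL4_IL13 against Control and for IL4_IL13_TNFa against IL4_IL13, both panels ordered by the first; filled points passed the adjusted p threshold of 0.05 and bars are approximate standard errors. Most points lie above 0 in both panels (60 higher and 1 lower, then 53 higher and 3 lower), but with library totals the second panel would hold 17 higher and 11 lower.

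The order of the group means was Control, IL4_IL13, IL4_IL13_TNFa from lowest to highest in 62 of 77 members (80.5%), against 28.1% of all genes. By the test with TMM, 42 members rose in all 3 comparisons, against 12.4% of all genes. With library totals 11 members did, against 6.88%. With TMM another 14 rose with IL-4 and IL-13 and against Control without passing at the second step, and 11 rose with TNFα and against Control without passing at the first. Mrpl52, Mrpl45, Mrpl58 and Mrpl39 were among those 11. The shares of all genes with these patterns were not counted. In 8 members the groups did not overlap at either step with TMM, where 5.09% of all genes were higher in this way, and they were picked out after their values were seen: Mrpl12, Mrpl34, Mrpl36, Mrpl44, Mrps28, Mrps34, Mrps35 and Mrps36. Mrps34, a mitochondria-specific small-subunit gene, had levels of 18.5 to 22.6 CPM in Control, 25.3 to 28.3 in IL4_IL13 and 32.7 to 40.0 in IL4_IL13_TNFa. Mrpl34, a large-subunit gene of bacterial type, had levels of 14.1 to 18.6, 20.98 to 24.9 and 25.9 to 36.5 CPM in the same order.

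By subunit, 20 of 26 small-subunit genes rose with IL-4 and IL-13 (median 0.36), and 39 of 50 large-subunit genes rose and 1 fell (median 0.29). Over all genes 29.3% rose and 29.7% fell with IL-4 and IL-13. When TNFα was added, 15 small-subunit genes rose and 3 fell (median 0.24), and 37 large-subunit genes rose (median 0.29) with TMM, where 30.3% of all genes rose and 29.3% fell. With library totals that step had 5 small-subunit genes higher and 6 lower (median 0.03), and 11 large-subunit genes higher and 5 lower (median 0.09), where 17.6% of all genes rose and 46.1% fell. Split by origin, the medians with IL-4 and IL-13 were 0.29 for 16 small-subunit genes of bacterial type, 0.47 for 10 mitochondria-specific ones, 0.31 for 29 large-subunit genes of bacterial type and 0.25 for 21 mitochondria-specific ones. With added TNFα they were 0.21, 0.34, 0.26 and 0.32 with TMM, and 0.00, 0.13, 0.05 and 0.11 with library totals, where the median of all genes was -0.20. All 4 classes thus had medians above that of all genes at both steps. Of the 45 members that share no exon with another gene, 34 rose with IL-4 and IL-13 (median 0.33), and with TNFα 34 rose and 1 fell (median 0.32), both with TMM. Over all genes 29.3% rose at the first step, and 30.3% rose and 29.3% fell at the second.

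The summed level of the large-subunit genes over that of the small-subunit genes, which no scaling changes, was 2.26 ± 0.0506 in Control (2.18 to 2.34), 2.11 ± 0.0435 in IL4_IL13 (2.06 to 2.16) and 2.23 ± 0.0365 in IL4_IL13_TNFa (2.19 to 2.28). All IL4_IL13 libraries were below all libraries of the other groups. Without Mrpl24, the large-subunit gene that fell, the ratio was 2.10 ± 0.0347, 2.02 ± 0.0343 and 2.15 ± 0.0346, and no IL4_IL13 library (1.98 to 2.05) reached the other groups (2.07 to 2.17 and 2.10 to 2.19). The balance of the 2 subunits' summed mRNAs was thus tilted towards the small subunit in IL4_IL13 by a small amount. Mrps25 and Mrps15, small-subunit genes that were highest in IL4_IL13 (described below), stayed in both ratios. How much of the tilt lay in single genes such as these was not tested.

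Members with a known special role were read whatever their values. Mrps12, at the decoding centre, had levels of 10.4 to 14.4 CPM in Control (median 11.8), 13.6 to 15.8 in IL4_IL13 (median 15.2) and 13.1 to 18.9 in IL4_IL13_TNFa (median 14.8). It rose by 0.33 ± 0.09 with IL-4 and IL-13 (adjusted p = 0.00389), and its difference with added TNFα was 0.04 ± 0.09 (adjusted p = 0.741). Mrpl2, near the peptidyl transferase centre, had levels of 24.6 to 27.6, 27.0 to 32.3 and 31.0 to 34.6 CPM in the same order and rose by 0.19 ± 0.05 and 0.17 ± 0.05 (adjusted p = 0.00247 and 0.00597). Mrpl11, part of the site where GTPase factors bind, ran from 11.5 to 19.6, from 16.1 to 20.1 and from 22.8 to 24.2 CPM and rose by 0.39 ± 0.10 and 0.40 ± 0.10 (adjusted p = 0.00377 and 0.00223), with Control replicate 1 at 19.6 CPM. With library totals the second step was -0.17 for Mrps12, -0.04 for Mrpl2 and 0.20 for Mrpl11 (adjusted p = 0.102, 0.528 and 0.0974), so none of the 3 passed there.

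Mrpl58, a peptidyl-tRNA hydrolase built into the large subunit, had levels of 11.0 to 14.4, 11.8 to 17.8 and 16.8 to 19.9 CPM in Control, IL4_IL13 and IL4_IL13_TNFa. Its first difference was 0.20 ± 0.09 (adjusted p = 0.0595, and 0.0181 without Control replicate 1), and it rose by 0.34 ± 0.09 with added TNFα (adjusted p = 0.00264, but 0.13 with an adjusted p of 0.2 with library totals). Mrpl44, which carries an RNase III-like fold, had levels of 17.6 to 22.8, 23.0 to 24.9 and 26.0 to 32.2 CPM, rising by 0.25 ± 0.07 and 0.29 ± 0.07 (adjusted p = 0.00518 and 0.00151). The second of these was 0.08 with library totals (adjusted p = 0.325). Mrps30, whose protein sits in the large subunit despite its symbol, had levels of 21.7 to 27.0, 26.6 to 30.5 and 28.1 to 33.97 CPM. Mrps30 rose by 0.25 ± 0.06 with IL-4 and IL-13 (adjusted p = 0.0026), and with added TNFα it differed by 0.11 ± 0.06 (adjusted p = 0.148; -0.10 with library totals). Mrps36, now regarded as a part of the ketoglutarate dehydrogenase complex and not of the ribosome, was counted in neither subunit. Its levels of 3.60 to 5.03, 5.33 to 7.65 and 8.13 to 10.2 CPM did not overlap, and it rose by 0.64 ± 0.11 and 0.47 ± 0.10 (adjusted p = 5.57e-05 and 0.000763).

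Compared per kilobase of the principal transcript, mean levels in Control spread from 2.51 to 52.7 CPM per kb over the members, with a median of 11.4. The highest were Mrpl24 at 52.7, Mrpl33 at 47.6 and Mrps21 at 40.0 CPM per kb, and the lowest were Mrpl17 at 2.51, Mrpl47 at 2.68 and Mrps35 at 2.80. The median was 15.4 CPM per kb in IL4_IL13 and 20.3 in IL4_IL13_TNFa. In IL4_IL13_TNFa the highest member was Mrpl52, at 107 CPM per kb, after 31.3 in Control and 30.3 in IL4_IL13. Of the 3 lowest members in Control, Mrpl17 rose by 0.39 ± 0.09 and 0.34 ± 0.09, Mrpl47 by 0.51 ± 0.09 and 0.40 ± 0.09 and Mrps35 by 0.50 ± 0.07 and 0.43 ± 0.07 at the 2 steps, all with adjusted p below the threshold with TMM. With library totals the second step did not pass for Mrpl17 (0.14, adjusted p = 0.186) or Mrpl47 (0.20, adjusted p = 0.0671), and it passed for Mrps35 (0.23, adjusted p = 0.00931). Mrps21, by contrast, differed by 0.16 ± 0.08 (adjusted p = 0.0987) and 0.18 ± 0.08 (adjusted p = 0.0711). Without Control replicate 1 both differences of Mrps21 passed (adjusted p = 0.0256 and 0.0439). Its second also passed without IL4_IL13_TNFa replicate 1 or 4 or IL4_IL13 replicate 6, and was -0.03 with library totals (adjusted p = 0.787).

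A few members went against the family. Mrpl24 (chr3:87919506-87923672, plus strand), which codes for a large-subunit protein of bacterial type, fell with IL-4 and IL-13. Its level ran from 53.5 to 78.5 CPM in Control (median 72.5), from 51.1 to 65.0 in IL4_IL13 (median 57.9) and from 57.7 to 64.5 in IL4_IL13_TNFa (median 61.2). All 3 groups overlapped. The log2 fold change was -0.28 ± 0.08 with IL-4 and IL-13 (adjusted p = 0.00507), and against Control the 3 cytokines gave -0.21 ± 0.08 (adjusted p = 0.0231). The latter was lost without Control replicate 4 (adjusted p = 0.0611), without Control replicate 5 (0.0601), without IL4_IL13_TNFa replicate 5 (0.0539) and with no filter (0.181). Mrpl24 shares 594 bp of exon with Rrnad1 on the opposite strand, whose means were 34.8, 29.7 and 31.1 CPM. How that overlap bears on the count was not tested.

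Mrps25 (chr6:92169525-92184033, minus strand), which codes for a mitochondria-specific small-subunit protein, rose and then fell. Its level ran from 16.0 to 24.8 CPM in Control (median 17.99), from 29.2 to 39.0 in IL4_IL13 (median 36.1) and from 23.6 to 31.5 in IL4_IL13_TNFa (median 28.3). IL4_IL13 lay wholly above Control and overlapped IL4_IL13_TNFa. The changes were 0.91 ± 0.10 (adjusted p = 6.83e-07) and -0.34 ± 0.10 (adjusted p = 0.00903). The gene shares 4590 bp of exon with Nr2c2 on the opposite strand, whose means fell from 114 to 90.8 and 64.7 CPM, and the strand setting of the counting is not given in the sources used here. Mrps15, which codes for a small-subunit protein of bacterial type, had the same shape on a smaller scale, with levels of 34.4 to 42.3, 49.8 to 56.99 and 47.6 to 51.4 CPM and changes of 0.54 ± 0.05 (adjusted p = 2.16e-08) and -0.14 ± 0.05 (adjusted p = 0.0193).

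Mrps6, another small-subunit gene of bacterial type, fell with added TNFα from 15.6 to 20.6 CPM in IL4_IL13 (median 18.2) to 13.0 to 15.4 in IL4_IL13_TNFa (median 13.9). The groups did not overlap, and the change was -0.35 ± 0.08 (adjusted p = 0.00118). It shares 464 bp of exon on the same strand with Slc5a3, a myo-inositol transporter gene whose means were 69.0, 42.9 and 22.1 CPM in Control, IL4_IL13 and IL4_IL13_TNFa. Reads in the shared stretch cannot be assigned to either gene from these counts. Mrpl33, which codes for a large-subunit protein of bacterial type, had the smallest difference from Control with all 3 cytokines under TMM. Its levels were 20.7 to 27.9, 22.0 to 25.4 and 21.2 to 24.5 CPM, and its differences were 0.06 ± 0.07, -0.04 ± 0.07 and, against Control, 0.03 ± 0.07 (adjusted p = 0.463, 0.682 and 0.752). Without Control replicate 1 its first difference passed the test (adjusted p = 0.0425). With library totals Mrpl33 fell with added TNFα (-0.24, adjusted p = 0.006) and against Control (-0.22, adjusted p = 0.00841). Mrps31 passed no test with TMM over all libraries, with levels of 10.0 to 13.2, 9.70 to 12.9 and 10.3 to 12.9 CPM. It was lower against Control with library totals (-0.19, adjusted p = 0.043), and higher with added TNFα without the 3 libraries numbered 1 (0.19, adjusted p = 0.0259).

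The remaining members with the smallest differences at a step were of both kinds, those that had already risen and those that had not. Mrpl10 rose by 0.18 ± 0.04 with IL-4 and IL-13 (adjusted p = 0.00104) and stood at 0.02 ± 0.04 with added TNFα (adjusted p = 0.724), where it fell with library totals (-0.19, adjusted p = 0.000725). Mrps11 rose by 0.43 ± 0.09 (adjusted p = 0.000593) and then stood at 0.02 ± 0.09 (adjusted p = 0.876). Mrpl39 was at -0.04 ± 0.07 with IL-4 and IL-13 (adjusted p = 0.642) and rose by 0.43 ± 0.07 with added TNFα (adjusted p = 2.18e-05). With TMM these 3 genes thus each passed at 1 of the 2 steps. Mrpl9 differed by 0.04 ± 0.07 and 0.14 ± 0.07 (adjusted p = 0.6 and 0.0716), and Mrps24 by 0.17 ± 0.06 (adjusted p = 0.0259, lost without Control replicate 2 or 6 or IL4_IL13 replicate 6) and -0.09 ± 0.06 (adjusted p = 0.238). With library totals the first difference of Mrps24 did not pass (0.12, adjusted p = 0.0846), and the gene fell with added TNFα (-0.29, adjusted p = 0.000357).

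Many members start back to back with another gene. A protein-coding gene on the opposite strand starts within 1000 bp upstream or 300 bp downstream of the start of 23 of 78 members (29.5%), against 8.67% of 21772 protein-coding genes in the table. Of the 23 partners 22 were measured. With IL-4 and IL-13, 9 of them rose and 8 fell (median -0.02), where 29.3% of all genes rose and 29.7% fell. With added TNFα 7 rose and 5 fell (median -0.06), where 30.3% of all genes rose and 29.3% fell. The 23 members had medians of 0.36 and 0.32. The partners' medians with TMM were thus nearer to that of all genes than to the members' own.

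Single pairs, chosen after their values were seen, went both ways. Ndufs6, a respiratory complex I gene whose start lies beside that of Mrpl36, had means of 15.9, 24.0 and 33.98 CPM against 15.2, 23.8 and 30.6 for Mrpl36, and both rose at both steps. With library totals the second step of Mrpl36 did not pass (0.16, adjusted p = 0.0712), while that of Ndufs6 did (0.29, adjusted p = 0.00974). Ptcd2, a mitochondrial RNA-processing gene 81 bp from Mrps27, rose at both steps as Mrps27 did, with means of 24.2, 35.4 and 50.9 CPM. Sars2, the mitochondrial seryl-tRNA synthetase gene 172 bp from Mrps12, had means of 15.6, 16.0 and 14.9 CPM and passed no test with TMM, and with library totals it fell with added TNFα (-0.31, adjusted p = 0.000378). Ppp1r10, 45 bp from Mrps18b, had means of 81.8, 81.0 and 85.6 CPM and passed no test with TMM while Mrps18b rose. With library totals Ppp1r10 was lower with added TNFα (-0.13, adjusted p = 0.023). Ncapd2, a condensin gene 100 bp from Mrpl51, went from 172 to 252 and then fell to 34.3 CPM with added TNFα, a log2 fold change of -2.88 (adjusted p = 4.25e-10). A list of 20 cell cycle genes fell with it, 20 of 20 passing at that step (median -3.07).

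The rest of the mitochondrial translation machinery was read from lists of genes, with counts from TMM unless library totals are named. Over all genes, 29.3% rose and 29.7% fell with IL-4 and IL-13, and 30.3% rose and 29.3% fell with added TNFα. With library totals 17.6% of all genes rose and 46.1% fell at that second step. Of 5 further mitochondrial ribosomal protein genes with other symbols, 3 rose with IL-4 and IL-13 (median 0.21) and 4 with added TNFα (median 0.30). Chchd1 had means of 11.4, 16.1 and 19.9 CPM and Gadd45gip1 of 15.5, 20.04 and 25.6 CPM, both rising at both steps. With library totals none of these 4 passed with added TNFα (adjusted p = 0.371 for Chchd1 and 0.131 for Gadd45gip1), and the list's median there was 0.10. Dap3, the exception, had means of 40.7, 42.1 and 39.9 CPM and passed no test with TMM, and with library totals it fell with added TNFα (-0.28, adjusted p = 0.000295).

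Of 13 translation factor genes 6 rose and 3 fell with IL-4 and IL-13 (median 0.13), against 29.3% and 29.7% of all genes. With added TNFα 6 rose (median 0.11), against 30.3% of all genes. With library totals 3 rose and 5 fell at that second step (median -0.09). The elongation factor genes were among those that rose at both steps, also with library totals. Gfm1, elongation factor G, had means of 33.9, 52.2 and 78.7 CPM, with changes of 0.62 ± 0.12 and 0.59 ± 0.12 (adjusted p = 0.000218 and 0.000247). Tufm, elongation factor Tu, had means of 15.9, 20.8 and 30.3 CPM, and Tsfm, its exchange factor, 11.5, 16.8 and 24.9. Of 20 genes for mitochondrial tRNA synthetases and related enzymes, 8 rose and 2 fell with IL-4 and IL-13 (median 0.26), and 8 rose and 4 fell with added TNFα (median 0.03). With library totals 3 rose and 8 fell at the second step (median -0.18).

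Assembly factors moved in both directions, as all genes did. Of 25, 6 rose and 5 fell with IL-4 and IL-13 (median -0.04), where 29.3% of all genes rose and 29.7% fell. With added TNFα 9 rose and 2 fell (median 0.15), where 30.3% of all genes rose and 29.3% fell. With library totals 3 rose and 7 fell at the second step (median -0.06). Mpv17l2, which takes part in ribosome assembly, rose from a mean of 16.6 to 31.6 and 36.9 CPM, with changes of 0.93 ± 0.08 and 0.22 ± 0.08 (adjusted p = 1.51e-08 and 0.0206), the second 0.02 with library totals (adjusted p = 0.872). Rbfa, a factor for small-subunit maturation, fell from 61.2 to 48.7 and 31.1 CPM, with changes of -0.33 ± 0.08 and -0.65 ± 0.08 (adjusted p = 0.00188 and 1.49e-06). Of 12 genes for transcription and replication of mitochondrial DNA, 4 rose and 2 fell at the first step and 6 rose and 3 fell at the second (3 and 5 with library totals). Lrpprc, which stabilises mitochondrial mRNAs, rose from 64.2 to 90.8 and 135 CPM.

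The ribosome's templates and the genes of the complexes they help to build were read next. Of 11 measured mRNAs coded in the mitochondrial genome, 7 rose at each step (medians 0.44 and 0.29), and with library totals 2 rose at the second (median 0.08). The gene mt-Nd1 had means of 1064, 1689 and 2402 CPM. The members' sum over the sum of these mRNAs had means of 0.129, 0.131 and 0.125 in the 3 groups, with ranges that overlapped. Of 74 nuclear respiratory chain genes 72 rose with IL-4 and IL-13 (median 0.60), and 69 rose and 1 fell with added TNFα (median 0.51). The members' sum over that of these genes was 0.352 to 0.361 in Control, 0.257 to 0.294 in IL4_IL13 and 0.219 to 0.227 in IL4_IL13_TNFa. The 3 ranges of this ratio, which no scaling changes, did not overlap, and the members' sum rose by less than that of the respiratory chain genes at both steps. With library totals 59 respiratory chain genes rose and 2 fell with added TNFα (median 0.31), against 17 and 11 members.

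Of 82 measured cytosolic ribosomal protein genes, 75 rose with IL-4 and IL-13 (median 0.34) and 28 with added TNFα (median 0.11). With library totals 3 rose and 22 fell at that second step (median -0.10). The members' sum over the cytosolic sum was 0.146 to 0.188 in Control, 0.144 to 0.169 in IL4_IL13 and 0.169 to 0.184 in IL4_IL13_TNFa. The first 2 ranges overlapped, and the last lay at or above the upper end of the second. With IL-4 and IL-13 the 2 kinds of ribosomal protein genes thus had similar medians, and with added TNFα the mitochondrial ones had the higher median.

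**Figure D5:**
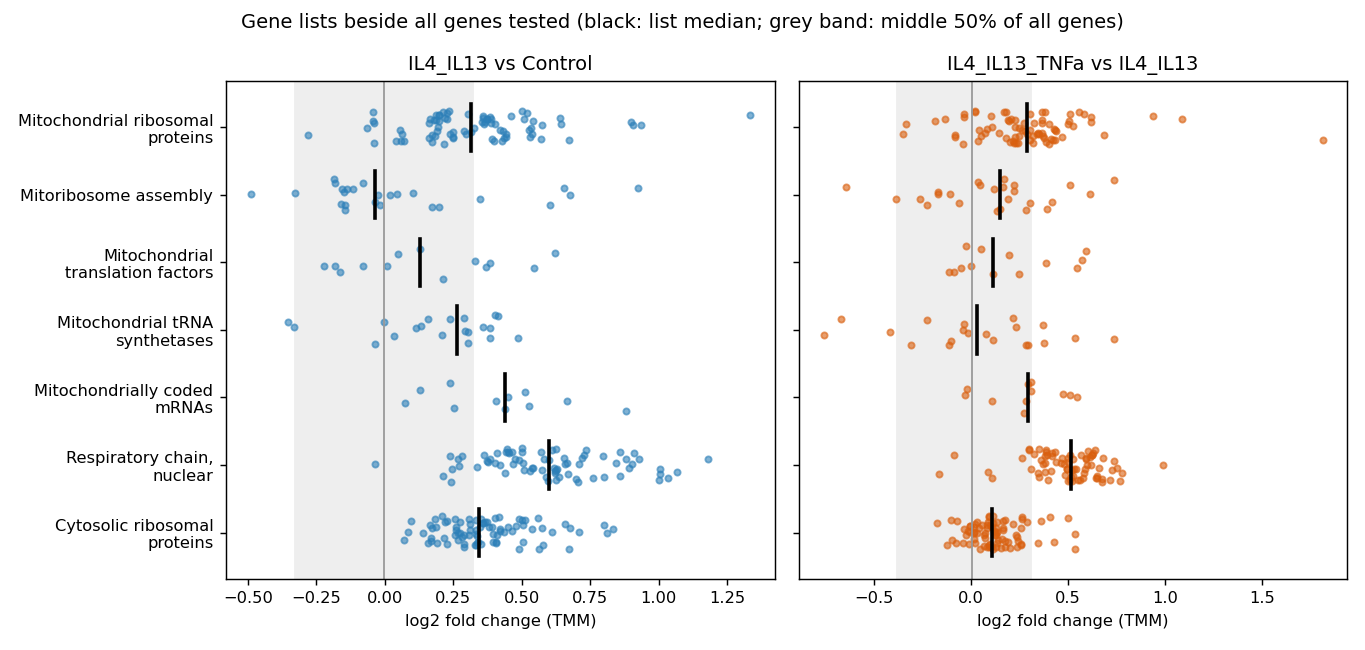
Log2 fold change (TMM scaling) of every measured gene in 7 lists, for IL4_IL13 against Control and IL4_IL13_TNFa against IL4_IL13; black lines are list medians and the grey band spans the quartiles of all 13177 genes. Nuclear respiratory chain genes lie highest (medians 0.60 and 0.51). The members had medians of 0.31 and 0.29, and cytosolic ribosomal protein genes had 0.34 and 0.11. With library totals the second cytosolic median turns to -0.10.

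Among 8 measured regulators of mitochondrial biogenesis, 4 rose with IL-4 and IL-13 (median 0.31), and 3 rose and 2 fell with added TNFα (median 0.08; 3 and 3 with library totals, median -0.13). The coactivator gene Ppargc1b had levels of 2.31 to 3.47 CPM in Control, 22.2 to 31.6 in IL4_IL13 and 50.6 to 62.1 in IL4_IL13_TNFa, with changes of 3.23 ± 0.11 and 1.09 ± 0.09 (adjusted p = 1.78e-14 and 4e-09). Esrra, a nuclear receptor that works with it, had levels of 53.7 to 59.5, 63.5 to 88.4 and 118 to 133 CPM, rising by 0.40 ± 0.07 and 0.76 ± 0.07 (adjusted p = 3.93e-05 and 8.46e-09). Neither gene's groups overlapped at either step. Myc had levels of 8.42 to 59.4 CPM in Control, with the highest in replicate 1, 80.8 to 93.5 in IL4_IL13 and 83.7 to 107 in IL4_IL13_TNFa. It rose by 2.16 ± 0.36 with IL-4 and IL-13 (adjusted p = 6.31e-05) and differed by 0.13 ± 0.34 with added TNFα (adjusted p = 0.765). Of 10 mitochondrial chaperone and protease genes, 6 rose with IL-4 and IL-13 (median 0.38) and 7 with added TNFα (median 0.46; 6 higher and 2 lower with library totals), with Hspd1 at means of 62.7, 118 and 231 CPM.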

How the data were processed

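Per the labels' protocols, libraries were made from poly(A) RNA with a strand-marking kit (NEBNext Ultra II Directional). The authors deposited 1 table of raw counts, whole numbers of reads for each gene and library. The submitters' processing notes name STAR 2.5.2 and 2.5.2b, RSEM 1.3.0, featureCounts 1.5.1, FastQC 0.11.5, bcl2fastq 2.20.0.422 and the build GRCm38 (mm10). The sources used here do not give the use made of each, the annotation release or the strand setting. Counts of overlapping genes are therefore uncertain.

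Gene IDs were matched to GENCODE M21, which gave symbols for 48434 rows and none for 360. Samples were grouped by their titles. Low genes were removed with edgeR 4.0.16 (filterByExpr, minimum count 10), and the rest were scaled by TMM and fitted by a robust quasi-likelihood model over all 18 libraries, with 3 contrasts. Standard errors were approximated from the test's F (the size of the log2 fold change over the root of F). Ratios of the Mrps18 relatives were compared by exact permutation tests (Python 3.11.15) and were added after the values were seen. The members and the lists were chosen with earlier results of these data known. Members were named by role, by the 5 largest rises and falls past the threshold in each comparison whose higher group averaged 5 CPM or more, by the 3 smallest differences, by loss to the filter, by movement against the majority, and by the 3 highest and lowest levels per length in Control. Up to 3 genes per other list and comparison were named by size. Other genes, Dap3 among them, were named after their values were seen.

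Alternatives were size factors and the Wald test of DESeq2 1.42.0, library totals, no filter, a stricter filter (5 CPM in 6 libraries), only the groups compared, a replicate block, each library left out and the 3 libraries numbered 1 left out. Same-numbered libraries deviated together from their group means in all 18 pairs (correlation 0.128 to 0.671), for which no label gives a reason. Only the replicate block took this pairing into account. The main fit and the permutation tests treated the libraries as unpaired, and no paired version of the permutation tests was run. No library copied another (lowest chi-square per degree of freedom 2.72 over 45 pairs). The scripts were tested on simulated counts. There the IL4_IL13 contrast with Control, run on 12966 genes, recovered 80.6% of 1.5-fold, 89.6% of 2-fold and 100% of 4-fold changes. Recovery at 1.5-fold was 79.1% for IL4_IL13_TNFa against IL4_IL13 and 71.6% for IL4_IL13_TNFa against Control. Unchanged genes called numbered 4, 9 and 14 in the same order. Changes below 1.5-fold were not simulated, while the members' median folds were 1.24, 1.22 and 1.47. Few genes were changed there, as many up as down, and only genes above a set mean count. No libraries were paired and none was set apart. The simulation therefore cannot show how scaling, pairing or Control replicate 1 bear on the real calls.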

Additional observations from a re-analysis of the deposited data

Results flagged for a closer look

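A library far from the other 5 of its group was found in 18 of 108 groups of 6 examined (33 members and the 3 sums, in 3 conditions), where chance gives about 1 in 20 groups, and 15 of the 18 were Control replicate 1. In that library the summed level of the members was 1830 CPM with the next control at 1470, that of the large subunit 1250 with the next at 1020, and that of the small subunit 574 with the next at 453. Among single members of that library, the level was 37.5 CPM for Mrpl12 (next 20.1), 36.0 for Mrpl42 (next 18.6), 41.7 for Mrpl18 (next 24.9), 16.7 for Mrps18b (next 9.95) and 9.63 for Mrps28 (next 4.29). It was 19.6 CPM for Mrpl11 (next 13.6), 24.2 for Mrpl17 (next 18.4), 27.9 for Mrpl33 (next 22.8), 24.4 for Mrpl38 (next 18.9), 22.3 for Mrpl39 (next 18.6), 22.4 for Mrps21 (next 19.5) and 23.9 for Mrps24 (next 20.6). All of these lay on the high side, and the part of that library's other differences in them was not tested.

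In the other groups, Mrps18c was low in IL4_IL13 replicate 2 at 14.0 CPM (next 15.1), Mrps24 was high in IL4_IL13 replicate 6 at 25 CPM (next 22.8), and the summed large-subunit level was high in IL4_IL13_TNFa replicate 6 at 1660 CPM (next 1560).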

How the results depend on the processing

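Library totals in place of TMM changed most. With added TNFα they gave 17 members higher and 11 lower (median 0.081), and 2313 genes higher and 6080 lower in all. Against Control the 3 cytokines then gave 5 members lower and a median of 0.31. Under the other settings, members lower in that comparison numbered 2 with DESeq2's size factors, the stricter filter or only the groups compared, and 0 in edgeR's test with no filter (0 also at an unadjusted p under 0.05, and 1 by DESeq2's Wald test). The median there was 0.67 without the 3 libraries numbered 1. With each library left out in turn, members lower against Control ranged from 0 to 2. The 0 came without Control replicate 5 (2 at an unadjusted p under 0.05) and without IL4_IL13_TNFa replicate 5 (1), and the 2 without IL4_IL13_TNFa replicate 4 or 6. The median ranged from 0.53 to 0.66, the last without Control replicate 1. Members higher then ranged from 55 to 64 with IL-4 and IL-13, from 47 to 59 with added TNFα and from 70 to 73 against Control. With the replicate block members numbered 60 higher and 1 lower, 54 and 3, and 72 and 1, in the same order of comparisons. The pairing of libraries changed few calls, among them Mrpl9 with added TNFα, which passed with the block (adjusted p = 0.0221). The causes were not tested.

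Of 2574 values of 33 named members under 26 alternatives, 2471 kept direction and side of the threshold, 34 newly passed it and 32 no longer passed it with the sign kept, and 37 changed sign, of which 4 also newly passed and 4 no longer passed. With IL-4 and IL-13 the sign changed for Mrpl9 with library totals (-0.00090), for Mrpl45 (0.021), Mrpl39 (0.018), Mrpl52 (0.013) and Mrps31 (0.015) with no filter, and for Mrpl39 (0.034) and Mrpl52 (0.033) without the 3 libraries numbered 1. With added TNFα and library totals it changed for Mrps18c (-0.0084), Mrps30 (-0.097), Mrps12 (-0.17), Mrpl2 (-0.037), Mrpl18 (-0.12), Mrpl24 (-0.13), Mrpl9 (-0.062), Mrpl10 (-0.19), Mrps11 (-0.19), Mrps31 (-0.10) and Mrps21 (-0.028). In that comparison it also changed for Mrpl10 (-0.0035) and Mrps11 (-0.0042) with the stricter filter and for Mrpl33 (0.011) without the 3 libraries numbered 1. Against Control it changed with library totals for Mrpl9 (-0.063), Mrpl10 (-0.047), Mrpl33 (-0.22), Mrps31 (-0.19) and Mrps24 (-0.17), and with the stricter filter for Mrpl33 (-0.020). With 1 library left out, values that crossed 0 ranged, with IL-4 and IL-13, from -0.062 to 0.020 for Mrpl39, from -0.10 to 0.030 for Mrpl52 and from -0.089 to 0.0057 for Mrps31, each highest without Control replicate 1. With added TNFα they ranged from -0.030 (without IL4_IL13_TNFa replicate 6) to 0.079 for Mrps12, from -0.0081 (without IL4_IL13 replicate 2) to 0.036 for Mrpl10 and from -0.015 (without IL4_IL13 replicate 3) to 0.065 for Mrps11. Against Control Mrpl33 ranged from -0.0080 (without Control replicate 5) to 0.096.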
